A study of Caenorhabditis elegans with 6 samples.

Results

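Cuticle collagens that set the body shape of the nematode Caenorhabditis elegans were followed in 10 genes, taken by name from tables of 41573 genes. They were the furrow collagen genes dpy-2, dpy-3, dpy-7, dpy-8 and dpy-9 and the other body-shape collagen genes dpy-5, dpy-13, dpy-17, sqt-1 and rol-6. RNA was measured in whole L3 larvae, in 3 libraries of a strain labelled hs::control and 3 of a strain labelled hs::lin-29. Animals of both strains were grown at 20 °C, heated to 37 °C for 30 min at 28 h after feeding and returned to their growth temperature for 1 h, so every library carries the heat shock. The heat shock is meant to induce early overexpression of LIN-29, a zinc finger transcription factor that times the change from larval to adult skin. The labels name neither the alleles nor the promoter behind the strain names.

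The cuticle of the worm is built anew at each molt by the underlying skin, the hypodermis and seam, from many small secreted collagens. Furrow collagens form the circumferential grooves between the ridges (annuli) of the cuticle. They depend on each other for assembly, and loss of a single one leaves the animal short and fat (dumpy). Collagen genes are transcribed in waves within each molting cycle, with dpy-7 and other furrow collagens among the early ones. Adult collagens such as col-19, bli-1 and bli-2 belong to the last cuticle.

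All 10 genes were read in every library, and none passed the test between strains, which 6.60% of all genes tested did. Log2 fold changes of hs::lin-29 over hs::control ran from -0.36 for dpy-7 to 0.01 for dpy-2 among the furrow collagens. They were 0.41 for dpy-5 and 0.44 for dpy-13. The approximate 95% intervals of all 10 genes lay between 0.449-fold and 1.76-fold. In the same libraries the adult collagen gene col-19 rose 52.5-fold (log2 fold change 5.72, SE 0.46, n = 3 per strain). RNA came from whole animals, so fewer cells of a type and less RNA per cell cannot be told apart.

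Levels are CPM (a gene's count relative to the TMM-scaled library total), and errors are SD over n = 3 libraries. The libraries held between 14553652 and 17303509 counts in genes. The gene lin-29 stood at 49.8, 43.8 and 45.8 CPM in the hs::control libraries, against 131, 517 and 339 CPM in the hs::lin-29 libraries (replicates 1 to 3), an increase that passed edgeR's quasi-likelihood test (adjusted p 0.004621). Its adjusted p was 0.1017 without a filter on low counts. Replicate 1 of hs::control stood apart from the other 2 control libraries on the second principal component, at 45.7 against -21.4 and -17.7. Among markers of tissues, elt-2 of the intestine rose 2.69-fold and passed, where 2.46% of all genes tested were called higher. The other 3 intestine markers and all tested markers of hypodermis (4, with dpy-7 itself), body wall muscle (3), neurons (4) and germline (3) did not pass. Every library lists 0 for the markers elt-3, unc-15 and pgl-1. So it does for 2053 of 17469 protein-coding genes matched by name, and such a 0 gives no level.

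The furrow collagens were of like abundance. Per kilobase of annotated exon they ran in hs::control from 193 ± 8.13 CPM for dpy-2 to 289 ± 38.1 CPM for dpy-9, with dpy-8 at 232 ± 41.4, dpy-7 at 269 ± 39.7 and dpy-3 at 270 ± 23.7. Neighbours in this order differed by less than the larger SD of the pair. The genes were read in the same libraries, and setting SDs side by side does not compare them within a library. The other genes spanned a far wider range. dpy-13 and dpy-5 reached 3568 ± 672 and 3435 ± 812 CPM per kilobase in hs::control. sqt-1 stood at 942 ± 123 and rol-6 at 637 ± 68.7 CPM per kilobase, between those and the furrow group. dpy-17 was the exception at 2.64 ± 0.346 CPM per kilobase, with 23 to 58 counts per library.

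**Figure D1:**
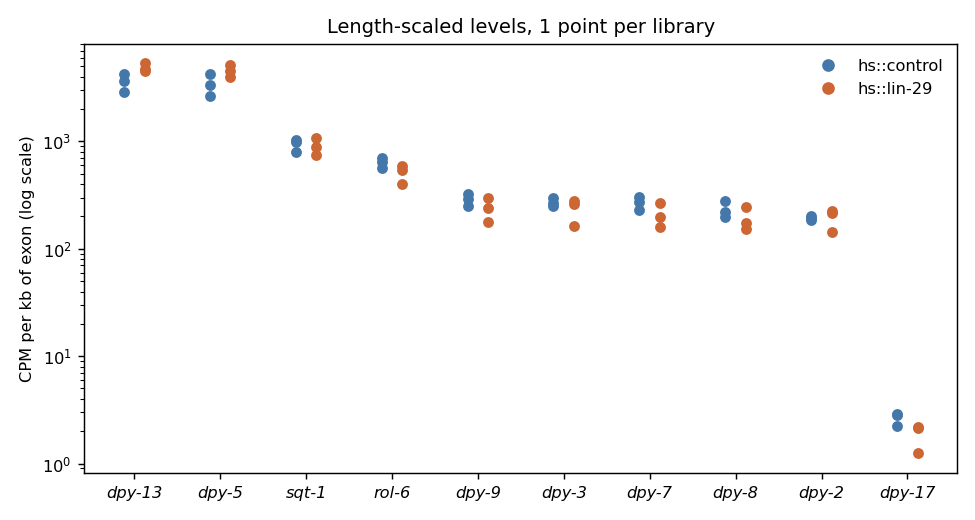
Level of each gene in CPM per kilobase of exon (log axis), with 1 point per library and the genes in order of their hs::control mean. dpy-13 and dpy-5 lie highest, the 5 furrow collagens share a narrow band from 193 to 289 in hs::control, and dpy-17 lies far below at 2.64.

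dpy-7, whose loss gives dumpy animals that can also roll, stood at 261, 312 and 352 CPM in the hs::control libraries, against 184, 227 and 309 CPM in the hs::lin-29 libraries (replicates 1 to 3). The strains overlapped, since hs::lin-29 replicate 3 lay above hs::control replicate 1. Its log2 fold change of -0.36 (SE 0.19, 95% interval -0.80 to 0.07) had an edgeR adjusted p of 0.3875.

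dpy-8 stood at 301, 332 and 421 CPM in hs::control, against 229, 265 and 368 CPM in hs::lin-29. The order of replicates was that of dpy-7, with replicate 1 lowest and replicate 3 highest in both strains. The log2 fold change was -0.29 (SE 0.19, interval -0.72 to 0.15, edgeR adjusted p 0.5236). The gene model of dpy-8 overlaps another on the opposite strand, C31H2.14, and no source used here gives the strand setting of the counting. The other 9 gene models overlap none.

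dpy-9 stood at 262, 342 and 305 CPM in hs::control, against 186, 253 and 309 CPM in hs::lin-29. Here replicate 2 was the highest control library, and the strains overlapped again. The log2 fold change was -0.28 (SE 0.18, interval -0.70 to 0.13, edgeR adjusted p 0.5142).

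dpy-3 stood at 240, 255 and 285 CPM in hs::control, against 157, 253 and 269 CPM in hs::lin-29. Only hs::lin-29 replicate 1 fell outside the range of the control libraries, and the log2 fold change was -0.20 (SE 0.19, interval -0.62 to 0.23, edgeR adjusted p 0.6885). When hs::lin-29 replicate 1 was left out it was -0.0038.

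dpy-2 stood at 256, 245 and 267 CPM in hs::control, against 188, 287 and 300 CPM in hs::lin-29, so the hs::lin-29 libraries lay on both sides of the controls. Its means were 256 ± 10.8 and 258 ± 61.1 CPM, with a log2 fold change of 0.01 (SE 0.17, interval -0.36 to 0.39, edgeR adjusted p 0.9803) that changed sign under 6 of the 16 other settings. Its furrow partner dpy-10, which lies close to it in the genome, is listed at 0 in every library and gives no level. The gene model of dpy-10 overlaps T14B4.19 on the same strand.

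Over the 5 furrow collagens 4 log2 fold changes were below 0, with a median of -0.28 beside 0.01 over all 13045 genes tested. This median was -0.46 when hs::lin-29 replicate 3 was left out, -0.12 when hs::lin-29 replicate 1 was and -0.14 when hs::control replicate 3 was. None passed an adjusted p of 0.05, where 6.60% of all genes did (2.46% higher and 4.14% lower). None passed at an unadjusted p of 0.05 either, a level reached by 18.2% of all genes, nor with DESeq2 or limma-voom. In none were the strains apart without overlap, as they were in 23.2% of all genes.

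**Figure D2:**
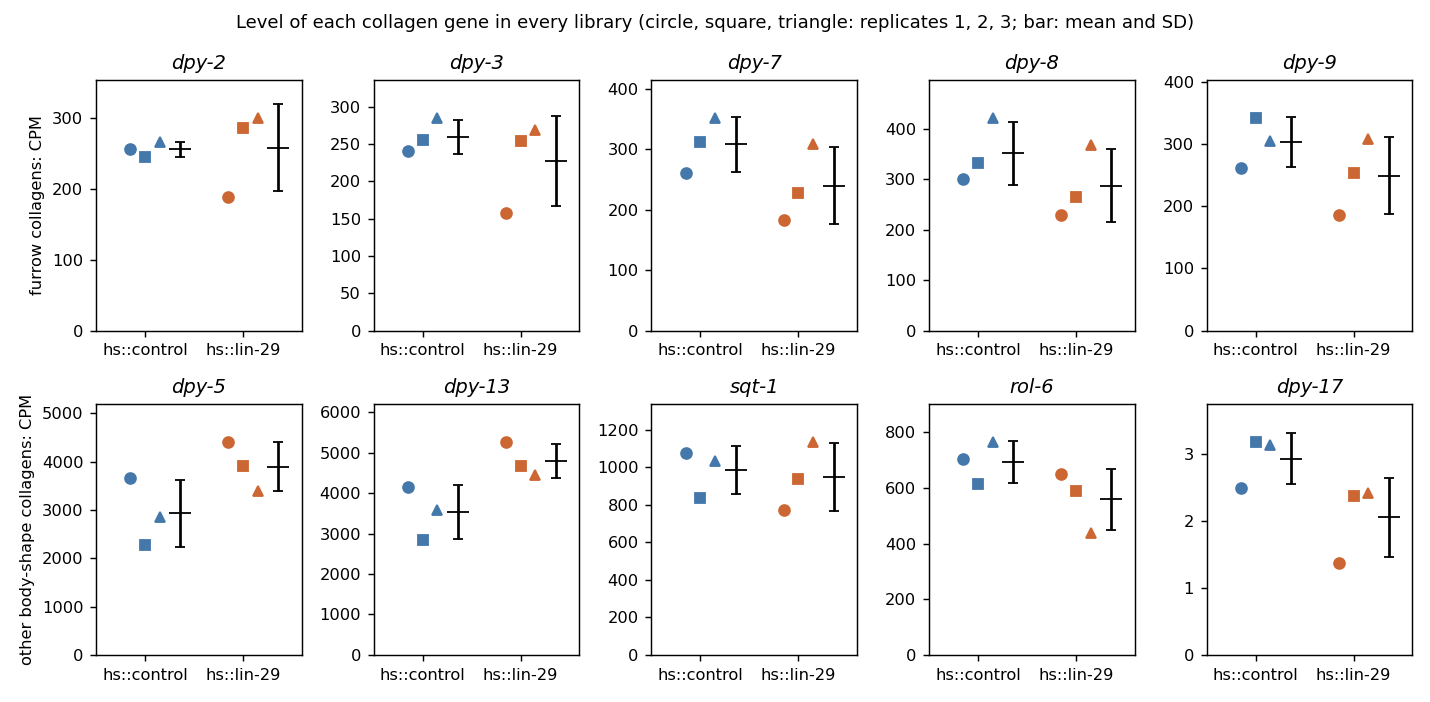
CPM of each gene (vertical axis, from 0) in the 3 libraries of each strain, with the mean and SD beside them. The strains overlap for every gene but dpy-13, where hs::lin-29 is higher, and dpy-17, where it is lower.

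dpy-13 encodes a collagen whose loss makes strongly dumpy animals. Its levels were 4162, 2837 and 3587 CPM in the hs::control libraries, against 5259, 4667 and 4443 CPM in the hs::lin-29 libraries (replicates 1 to 3). All hs::lin-29 libraries lay above all controls. The means were 3529 ± 665 and 4790 ± 421 CPM, a log2 fold change of 0.44 (SE 0.15, interval 0.09 to 0.79). The unadjusted p was 0.0181 and the edgeR adjusted p 0.1484, so it did not pass over all genes.

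The call of dpy-13 turned on the setting. It passed with DESeq2 (adjusted p 0.04616, where 8.78% of all genes passed), with no filter on low counts (0.014, where 4.75% passed) and without hs::control replicate 1 (0.04708, where 6.65% passed). Over all settings run its adjusted p ran from 0.014 to 0.3876, and its log2 fold change from 0.29 to 0.58.

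dpy-5, another collagen gene named for its dumpy mutants, stood at 3667, 2285 and 2860 CPM in hs::control, against 4401, 3904 and 3385 CPM in hs::lin-29. The strains overlapped through hs::control replicate 1, which lay above hs::lin-29 replicate 3. Its log2 fold change of 0.41 (SE 0.18, interval 0.00 to 0.82) had an unadjusted p of 0.0501 and an edgeR adjusted p of 0.2751. Leaving out hs::control replicate 1 gave 0.60 and an adjusted p of 0.0548, the lowest under any setting run, the highest being 0.6107. The levels of dpy-5 and dpy-13 kept close step. Their ratio within a library, chosen after the values were seen, was 0.881, 0.805 and 0.797 in hs::control. In hs::lin-29 it was 0.837, 0.836 and 0.762. How often other gene pairs keep such a ratio was not tested.

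dpy-17 encodes a collagen that is needed for the secretion of the collagen SQT-3. Its levels were 2.49, 3.18 and 3.14 CPM in hs::control, against 1.38, 2.37 and 2.43 CPM in hs::lin-29. All hs::lin-29 libraries lay below all controls, though by a small margin at these few counts. The log2 fold change was -0.52 (SE 0.28, interval -1.15 to 0.12, edgeR adjusted p 0.4055). The partner gene sqt-3 is listed at 0 in every library.

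sqt-1 and rol-6 encode collagens that work together, and particular mutations in either make the animal roll around its long axis. sqt-1 stood at 1079, 838 and 1035 CPM in hs::control, against 773, 935 and 1133 CPM in hs::lin-29. The hs::lin-29 libraries held both the lowest and the highest value of the 6. The log2 fold change was -0.05 (SE 0.16, interval -0.42 to 0.31, edgeR adjusted p 0.9143).

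rol-6 stood at 703, 615 and 764 CPM in hs::control, against 649, 589 and 438 CPM in hs::lin-29. Its lowest value was in hs::lin-29 replicate 3, the library where sqt-1 was highest. The log2 fold change was -0.31 (SE 0.16, interval -0.67 to 0.04, edgeR adjusted p 0.3531). The ratio of sqt-1 to rol-6 within a library, also chosen after the values were seen, was 1.53, 1.36 and 1.36 in hs::control. In hs::lin-29 it was 1.19, 1.59 and 2.59, highest in replicate 3.

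Over these 5 genes 2 log2 fold changes were above 0 and 3 below, with a median of -0.05 that turned to 0.019 when hs::control replicate 1 was left out and to 0.061 when hs::lin-29 replicate 1 was. None passed the adjusted test and dpy-13 alone had an unadjusted p under 0.05. The strains were apart in dpy-13 (higher, as in 11.3% of all genes) and dpy-17 (lower, as in 11.9%). All 10 genes together thus had 2 with strains apart, a share near that of all genes tested.

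**Figure D3:**
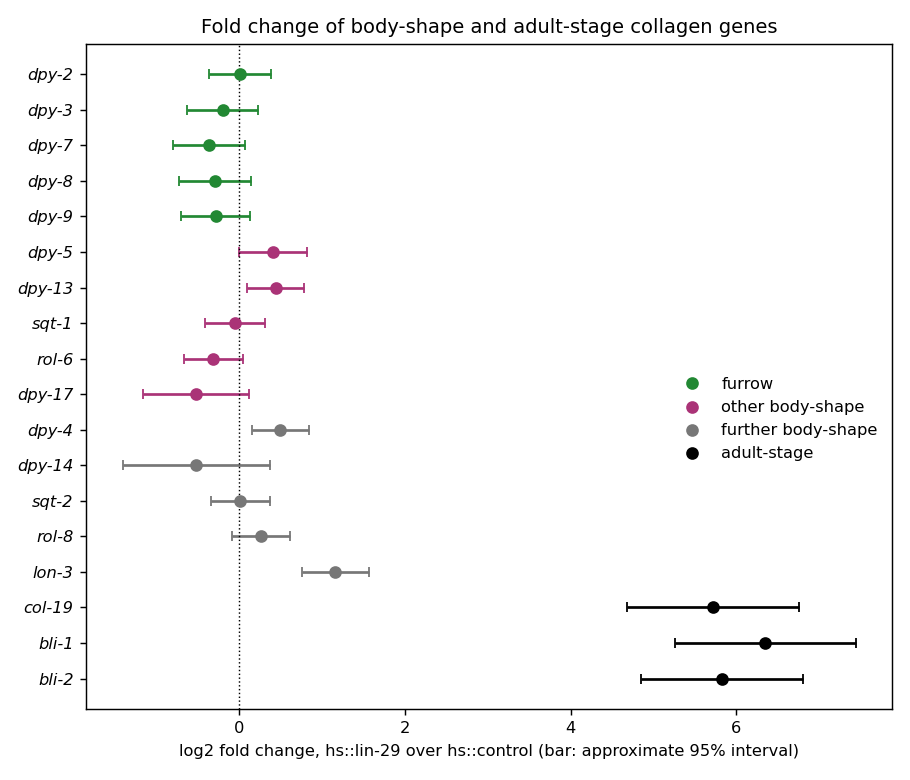
Log2 fold change of hs::lin-29 over hs::control with its approximate 95% interval, for the furrow and other body-shape collagens, further body-shape collagens and adult-stage collagens. The intervals of the 5 furrow collagens and of dpy-5, sqt-1, rol-6 and dpy-17 include 0, that of dpy-13 does not, and col-19, bli-1 and bli-2 lie between 5.72 and 6.35.

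The furrow collagens differed more among the hs::lin-29 libraries than between the strain means. These are unlike measures, since a span of single libraries tends to exceed a difference of means. From the lowest to the highest library they spanned 1.59-fold to 1.71-fold in hs::lin-29 and 1.09-fold to 1.40-fold in hs::control, while the largest difference between strains was 1.29-fold, that of dpy-7. The biological coefficient of variation was 13.9% to 17.2% for all genes but dpy-17, above the trend for genes of their abundance (12.6% to 13.2%). In hs::lin-29 all 5 furrow collagens were lowest in replicate 1 and highest in replicate 3. Their mean log2 deviation from the strain mean was -0.39, 0.06 and 0.33 in replicates 1 to 3. In hs::control it was -0.15, 0.01 and 0.14, and 4 of the 5 were lowest in replicate 1, the exception being dpy-2.

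dpy-5, dpy-13 and rol-6 had the opposite order in hs::lin-29, highest in replicate 1 and lowest in replicate 3. In hs::control dpy-5 and dpy-13 were also highest in replicate 1, but lowest in replicate 2. The ratio of dpy-13 to dpy-7, chosen after the values were seen, was 15.9, 9.08 and 10.2 in hs::control and 28.6, 20.6 and 14.4 in hs::lin-29. The strains overlapped in it, since hs::control replicate 1 (15.9) lay above hs::lin-29 replicate 3 (14.4). The hs::lin-29 library with the least lin-29, replicate 1 at 131 CPM, was the one with the lowest furrow collagens and the highest dpy-13. The order did not follow lin-29 further, since replicate 2 held the most lin-29 (517 CPM) while the furrow collagens were highest and dpy-13 lowest in replicate 3 (339 CPM).

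**Figure D4:**
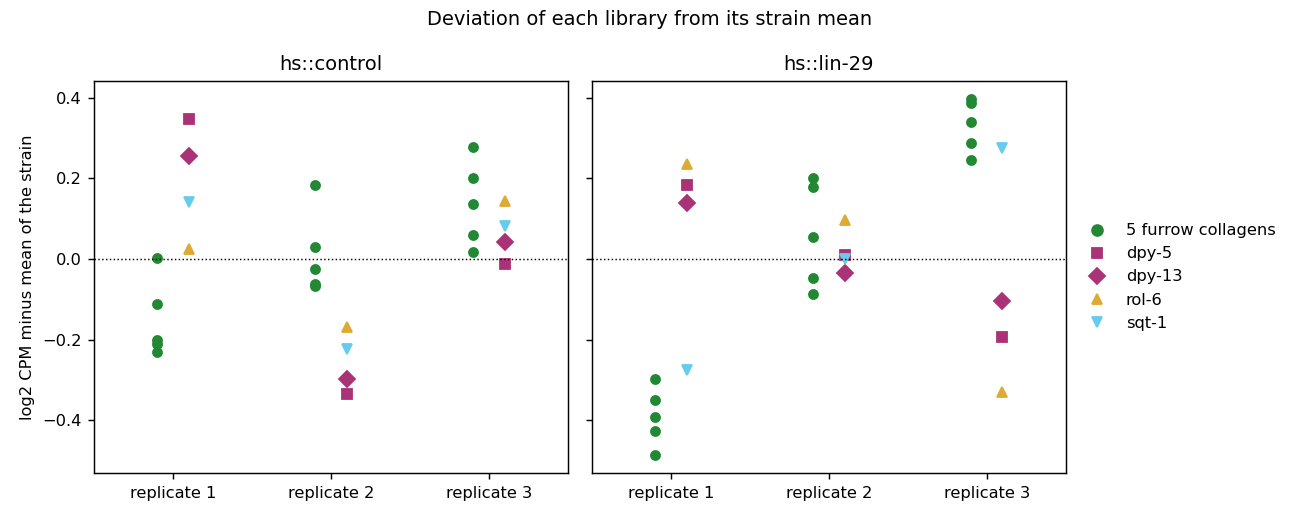
Log2 CPM of each gene minus the mean of its strain (vertical axis), by replicate. In hs::lin-29 the 5 furrow collagens run from a mean of -0.39 in replicate 1 to 0.33 in replicate 3, and dpy-5, dpy-13 and rol-6 run the other way.

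**Figure D5:**
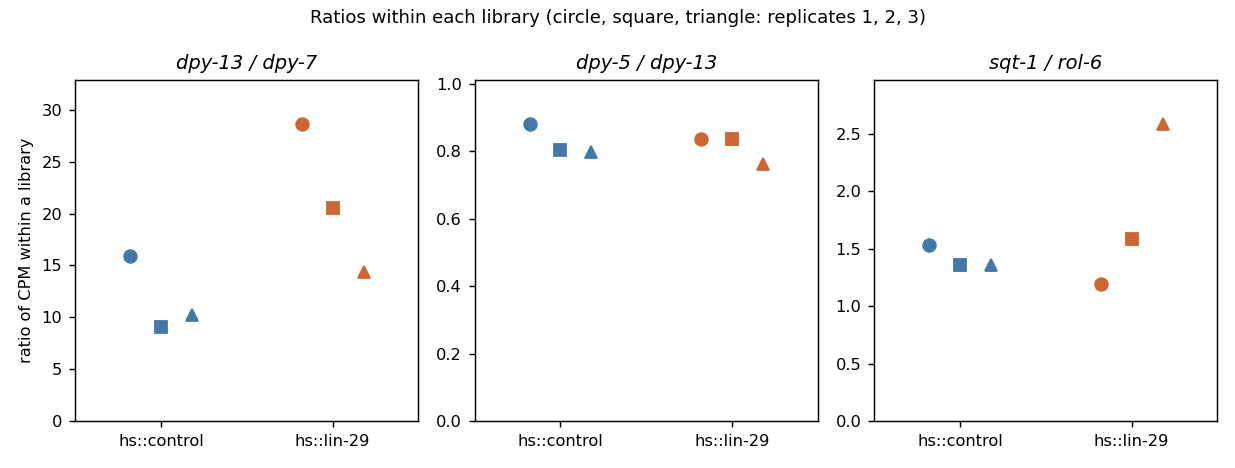
Ratio of the CPM of paired genes within each library, by strain, with the pairs chosen after the values were seen. dpy-5 to dpy-13 stays between 0.762 and 0.881, dpy-13 to dpy-7 ranges from 9.08 to 28.6, and sqt-1 to rol-6 is highest, at 2.59, in hs::lin-29 replicate 3.

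Likeness to the furrow pattern was described by Pearson's r between strain-centred log2 CPM over the 6 libraries and the mean of the furrow collagens, each furrow gene being set against the other 4. It was 0.94 for dpy-7, 0.93 for dpy-3, 0.89 for dpy-9 and 0.86 for dpy-8 and dpy-2. Of the other members dpy-17 reached 0.93 and sqt-1 0.70, while dpy-13, dpy-5 and rol-6 had -0.53, -0.63 and -0.69. With 23 to 58 counts per library, dpy-17 averaged under 5 CPM, so the ranked genes are no matching background for it. Among 9083 genes that averaged 5 CPM or more, dpy-7 ranked 59, dpy-3 66, dpy-9 147, dpy-2 205 and dpy-8 234. With few libraries, high values were not confined to the furrow collagens. Of the 9074 further genes at that level, 130 reached 0.9. The 10 most alike were ZK1098.11, ztf-2, rbx-1, let-653, T18D3.1, vglu-2, mltn-9, F43D9.1, F08G2.7 and osr-1, with r from 0.982 to 0.998. let-653 encodes a protein of the apical extracellular matrix, and mltn-9 is named for its relation to the molting gene mlt-10. Whether the 10 share a function was not tested. let-653 stood at 57.1, 66.2 and 75.2 CPM in hs::control, against 41.4, 63.8 and 75.6 CPM in hs::lin-29. Of the 10 only vglu-2, of the vesicular glutamate transporter family, passed between strains, as 6.60% of all genes tested did. It was lower in hs::lin-29 (log2 fold change -0.49, edgeR adjusted p 0.01022).

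Among further collagens of body shape, lon-3 rose. Loss of lon-3 makes the worm long, and more LON-3 makes it dumpy. Its levels were 368, 303 and 382 CPM in hs::control, against 654, 690 and 1005 CPM in hs::lin-29. The strains did not overlap, and 11.3% of all genes tested were likewise apart and higher. The rise was 2.23-fold (log2 fold change 1.16, SE 0.18, edgeR adjusted p 0.005722) and passed under all 16 other settings. The gene model of lon-3 overlaps ogdh-2 on the opposite strand. Other genes named here also overlap a coding gene on the opposite strand. Among them are dpy-4 (atln-2), col-19 (ZK1193.2), bli-1 (dph-2), bli-2 (zyg-1) and tsp-15 (madd-4). Of 5 tested genes on this list lon-3 alone passed (2.46% of all genes tested were called higher), none fell, and the median log2 fold change was 0.27.

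dpy-4, named here after its values were seen, had a change close to that of dpy-13. Its levels were 4146, 2766 and 3471 CPM in hs::control, against 4971, 5028 and 4677 CPM in hs::lin-29. Again the strains did not overlap, as in the 11.3% of all genes that were apart and higher. Its log2 fold change of 0.50 (SE 0.15) had an edgeR adjusted p of 0.09713 (0.003297 to 0.2496 under the other settings). It passed in 4 of the 16, namely library totals only, no filter on low counts, DESeq2 and without hs::control replicate 1. Of all genes, 4.75% passed with no filter, 8.78% with DESeq2 and 6.65% without that library. With library totals only, 248 genes were called higher and 532 lower. The ratio of dpy-4 to dpy-13 stayed between 0.945 and 1.08 over the 6 libraries. rol-8, sqt-2 and dpy-14 had log2 fold changes of 0.27, 0.01 and -0.52 and did not pass.

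The 3 adult-stage collagens gave the contrast in size. col-19 went from 1.80 ± 1.19 to 98.5 ± 40.8 CPM. The strut collagen genes bli-1 and bli-2 rose 81.4-fold and 56.8-fold to 269 ± 97.2 and 320 ± 137 CPM. All 3 were called higher, as 2.46% of all genes tested were, and all 3 passed under the 16 other settings. Per kilobase of exon bli-2 reached 322 ± 138 CPM in hs::lin-29, col-19 106 ± 43.7 CPM and bli-1 89.4 ± 32.3 CPM. The means of the furrow collagens in that strain ran from 190 ± 47.7 (dpy-8) to 238 ± 58.7 (dpy-9) CPM per kilobase. They lay above the means of col-19 and bli-1 and below that of bli-2, the latter by less than the SD of bli-2. Before length scaling bli-2 stood at 241, 240 and 478 CPM in hs::lin-29, so its mean leaned on replicate 3.

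Genes for the modification and crosslinking of collagens had 1 call among 9 tested, where 4.14% of all genes were called lower. tsp-15, a tetraspanin gene of the crosslinking complex, fell 1.40-fold (log2 fold change -0.49, SE 0.12, edgeR adjusted p 0.04797). None rose, and the median log2 fold change was 0.04. The call of tsp-15 held in 8 of 16 other settings. It ended with upper-quartile scaling, library totals only and limma-voom, and on leaving out replicate 2 or 3 of either strain (adjusted p 0.01879 to 0.1689 over all other settings). dpy-18 and phy-2, which encode prolyl hydroxylase subunits, and bli-3, the dual oxidase gene, had log2 fold changes of 0.15, 0.04 and 0.12. Those of the other tested genes of this list were 0.07 for pdi-2, 0.10 for dpy-31, -0.10 for doxa-1, -0.11 for bli-5 and -0.14 for mlt-7, and none of these 8 passed. bli-4, the convertase gene, had at most 11 counts and was not tested.

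Genes known to be raised in worms that lack furrow collagens were examined as well. Of 4 tested, the gene hmit-1.1 for a myo-inositol transporter fell and none rose, where 4.14% of all genes were called lower. Its levels were 29.7, 33.1 and 33.2 CPM in hs::control, against 13.6, 14.5 and 18.8 CPM in hs::lin-29 (log2 fold change -1.03, SE 0.14, edgeR adjusted p 0.003055), a call kept under all 16 other settings. The antimicrobial peptide gene nlp-29 (-0.70, edgeR adjusted p 0.1129) passed with DESeq2 alone (0.0245, where 8.78% of all genes passed). Under the other settings its adjusted p reached 0.5247, and its log2 fold change ran from -0.85 to -0.36. Its levels were 63.3, 119 and 66.5 CPM in hs::control, highest in replicate 2, against 51.7, 49.9 and 52.0 CPM in hs::lin-29. The strains did not overlap, as in the 11.9% of all genes that were apart and lower. The glycerol synthesis gene gpdh-1 (-0.25) and the glutathione transferase gene gst-4 (-0.01) did not pass.

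Of 5 tested transcription factor genes of the epidermis and molting cycle, nhr-25, a nuclear receptor gene needed for molting, rose and none fell, where 2.46% of all genes were called higher. Its levels were 47.0, 33.7 and 44.9 CPM in hs::control, against 63.9, 67.9 and 55.9 CPM in hs::lin-29 (log2 fold change 0.58, SE 0.14, edgeR adjusted p 0.0410). With any library other than hs::control replicate 1 left out, it no longer passed (adjusted p 0.0002565 to 0.1324 over all other settings). blmp-1, grh-1, lin-42 and lin-26 lay between -0.10 and 0.28 and did not pass. nhr-23, elt-1 and elt-3 are listed at 0 in every library, and myrf-1 was not found under that name among the genes counted.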

How the data were processed

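Per the labels' protocols, the RNA kit was Zymo's Quick-RNA and the library kit NEB's NEBNext Ultra RNA. The deposited values are raw read counts per gene, 1 table per library, not normalized. Of software, the submitters' processing notes list HTSeq 0.6.1p1, STAR 2.5.2b, bcl2fastq 2.18, R 3.3.2 and DESeq2 1.12.3, with ce10 as genome build and no roles stated. Annotation release and strand setting: not given in the sources used here. Rows that name no gene held 39.7% to 41.8% of the counts (11.3% or less ambiguous, 19.2% or less with several alignments) and were dropped before scaling. Reads shared by near-identical genes are not counted this way.

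Genes kept by filterByExpr of edgeR 4.0.16 (minimum count 10, total 15) numbered 13045. After TMM scaling, the test was edgeR's robust quasi-likelihood F test, two-sided, with a strain term alone. Benjamini-Hochberg adjustment ran over all genes, with a threshold of 0.05. SE is the absolute log2 fold change over the square root of F, and intervals are 95% and approximate. Log2 CPM used a prior count of 2. Exon lengths and overlaps come from the WBcel235 annotation, another build, so no coordinates are given.

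The members and lists were chosen with earlier results of these data known. Named genes were all members, up to 4 called genes of each list by size of change (the 2 with the smallest p where none passed, except that tissue markers are given as counts), and the 10 genes most like the furrow mean. The uncalled members of lists that hold a call are given outside this rule. The replicates are labelled as trials, with nothing on separate cultures, so the p-values reflect a spread between libraries that may be technical. Replicates differed beyond sampling noise (chi-square at least 10.2 per degree of freedom). The alternatives were other scalings (RLE, upper quartile, totals), other filters (none, at least 1 CPM in 3 libraries), DESeq2 1.42.0, limma-voom (limma 3.58.1), a non-robust fit, a replicate block, dropping the 20 most abundant genes and dropping each library. R 4.3.3, Python 3.11.15, pandas 2.3.3 and matplotlib 3.10.9 were used.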

Additional observations from a re-analysis of the deposited data

How the results depend on the processing

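Of the 10 genes, 8 kept the sign of their log2 fold change under all 16 other settings. The exceptions were dpy-2, at -0.025 with library totals only, -0.014 with limma-voom, -0.014 with the replicate block and -0.11 to 0.19 with a library left out, and sqt-1, at -0.20 to 0.061 with a library left out. The count of these genes called higher was 1 in place of 0 (dpy-13) with DESeq2 and with no filter on low counts, and 0 to 1 with a library left out. None was called lower under any setting. The median log2 fold change ran from -0.46 to -0.12 for the furrow collagens and from -0.17 to 0.061 for the other 5 with a library left out. Over all genes, 321 were called higher and 540 lower, with 206 and 350 under the replicate block. With a library left out these were 135 to 327 and 324 to 567, lowest without hs::control replicate 3. Over all genes, the trial numbers showed no clear pairing of the libraries. Deviations of same-numbered libraries correlated at 0.01, -0.36 and 0.24. Of the hs::control libraries replicate 3 alone correlated best with its own number in hs::lin-29. With 3 libraries per strain this check cannot exclude a pairing. The furrow mean rose from replicate 1 to replicate 3 in both strains. No call of the 10 genes changed under the block, and the calls of tsp-15 and nhr-25 did not hold in it.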
